A study of Mus musculus with 18 samples.

Results

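Transcript levels of 9 transcription regulator genes, Id1, Id2, Id3, Bhlhe40, Bhlhe41, Maf, Irf8, Spi1 and Cebpa, were followed in mouse bone marrow-derived macrophages cultured with plasma of Western diet-fed mice. The members were picked by gene symbol. Each of the 9 had exactly 1 row among the 24705 rows of the array table that carry a gene symbol, and all 9 entered every test. The series holds 18 arrays. Marrow cells of mouse femurs were grown with M-CSF, the growth factor of macrophages, at 30 ng/mL, and on day 4 the medium was exchanged for one that held 10% plasma in place of serum. RNA was taken 48 hours later, on day 6. The plasma donors were wild-type C57BL/6J mice (WT, 4 arrays), mice without apolipoprotein E (ApoE, 5 arrays), mice without apolipoprotein E and stabilin-1 (AS1, 3 arrays) and mice without apolipoprotein E and stabilin-2 (AS2, 6 arrays), all after 8 weeks of Western diet. The sources used here do not give the donors' age. The labels attach each knockout to the plasma, not to the macrophages. AS1 and AS2 plasma both also lacked apolipoprotein E, so the comparison in which the donor genotypes differ by a stabilin alone is that with ApoE plasma. The labels do not tell plasma donors, pools or array runs apart, so these cannot be separated from genotype. Stabilin-1 and stabilin-2 are scavenger receptors that clear ligands from the circulation.

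Id proteins are helix-loop-helix proteins without a DNA-binding region. They pair with E proteins, such as those encoded by Tcf3, Tcf4 and Tcf12, and keep them from binding the DNA motif called the E-box. Bhlhe40 and Bhlhe41 encode the repressors DEC1 and DEC2, which do bind E-boxes, belong to the circadian clock and act in macrophage self-renewal. The other members set up the myeloid lineage. Spi1 encodes PU.1, the master factor of myeloid cells, Cebpa encodes C/EBP-alpha, which drives the granulocyte and monocyte precursor, Irf8 encodes a partner of PU.1 that favours monocytes over neutrophils, and Maf encodes c-MAF, a factor of mature and interleukin-10-producing macrophages that restrains their division.

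Promoter windows of RefSeq (mouse build GRCm38.p6), from 250 bases before to 50 bases after a transcription start, were matched for 5 of the 9 members, namely Id2, Id3, Bhlhe41, Irf8 and Cebpa. The windows of Id2, Id3 and Bhlhe41 are shown because these genes had the widest differences between plasma groups among the matched members. Each is written 5′ to 3′ on the strand of the gene, and capitals mark every E-box (CANNTG, which reads the same on both strands). The Id2 window is chr12:25096043-25096342 on the minus strand, the Id3 window chr4:136143572-136143871 on the plus strand and the Bhlhe41 window chr6:145865371-145865670 on the minus strand.
Id2: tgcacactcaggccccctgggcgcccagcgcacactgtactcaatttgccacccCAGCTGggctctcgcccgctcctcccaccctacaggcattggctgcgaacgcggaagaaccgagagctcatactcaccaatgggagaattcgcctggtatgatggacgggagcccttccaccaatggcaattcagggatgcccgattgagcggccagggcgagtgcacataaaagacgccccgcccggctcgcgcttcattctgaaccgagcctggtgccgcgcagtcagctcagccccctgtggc
Id3: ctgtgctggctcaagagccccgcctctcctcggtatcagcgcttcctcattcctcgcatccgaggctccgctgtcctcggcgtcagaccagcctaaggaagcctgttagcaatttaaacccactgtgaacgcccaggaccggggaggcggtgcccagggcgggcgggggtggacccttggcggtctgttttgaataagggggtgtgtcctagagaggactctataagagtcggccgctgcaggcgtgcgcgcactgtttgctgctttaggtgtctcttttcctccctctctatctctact
Bhlhe41: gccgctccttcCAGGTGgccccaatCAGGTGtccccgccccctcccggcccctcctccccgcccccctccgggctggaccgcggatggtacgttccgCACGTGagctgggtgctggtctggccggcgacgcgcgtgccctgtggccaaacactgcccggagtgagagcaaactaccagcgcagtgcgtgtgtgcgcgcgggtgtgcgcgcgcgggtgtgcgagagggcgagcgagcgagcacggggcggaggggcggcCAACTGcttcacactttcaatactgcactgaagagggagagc
The Bhlhe41 window held 4 E-boxes, which start at bases -239, -225, -153 and 9 from the transcription start. That at -153 was the palindrome CACGTG, the form that Bhlhe proteins prefer and itself a case of CANNTG. The Id2 window held 1 E-box, at -196, and the Id3 window held 0. Of all 32851 RefSeq promoter windows of this length, 72.3% held at least 1 CANNTG and 7.15% at least 1 CACGTG. The letters GGCGCC, which SMAD proteins of the BMP pathway recognise, were found in the windows of Id2 (at -231) and Cebpa (at -83) and in 11.9% of all windows. GAGGAA, the core of PU.1 sites, was found on either strand 3 times in the Id3 window and in 28.3% of all windows. The C/EBP and ATF composite TGATGNAA (3.97% of windows) and the CRE core TGACGT (7.51%) were found in none of the 6 windows of these 5 genes, on either strand. A match is a description of letters and not a binding site.

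Array values are log2 expression after RMA, a procedure that corrects background, makes the distributions of the arrays equal and summarises the probes of a gene, so 1 unit is a 2-fold difference. The median array value was 4.37. The mean r of an array with the rest of its group, across rows, ran from 0.9912 to 0.9971; rows are not independent replicates. ApoE replicates 2 and 5 stood apart from the other ApoE arrays. Replicate 2 had the lowest agreement with its group (mean r 0.9912), and replicate 5 correlated with AS1 replicate 3 at 0.9935, close to its mean r of 0.9942 with its own group. Replicate 5 was also the closest array of another group to each WT array (r from 0.9902 to 0.9906) and to each AS1 array (0.9926 to 0.9935). Among the 9 members, the ApoE array nearest the AS1 mean was replicate 5 for 5 members (Id1, Id2, Bhlhe41, Irf8 and Spi1) and replicate 2 for 3 (Id3, Maf and Cebpa), whereas over all rows these shares were 31.9% and 15.0%. Values without both arrays are given where they changed a call. Of 10 macrophage markers 9 were measured, and their mean level lay between 11.03 and 11.51 in every array. The mean level of 7 T and NK cell markers lay between 3.78 and 3.94. Whether the replicates came from different cultures or different plasma donors is not labelled. All p-values therefore reflect array-to-array spread alone, and that spread may be technical. In bulk RNA, fewer cells of a type and less RNA per cell cannot be told apart.

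Across the 4 groups, 8 of the 9 members differed (limma moderated F, adjusted p below 0.05), and 30.2% of all rows did so. The exception was Id1 (adjusted p = 0.606). The smallest adjusted p among members belonged to Id3 (1.46e-10), followed by Bhlhe41 (2.94e-09), Id2 (2.51e-08) and Maf (3.17e-08).

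**Figure D1:**
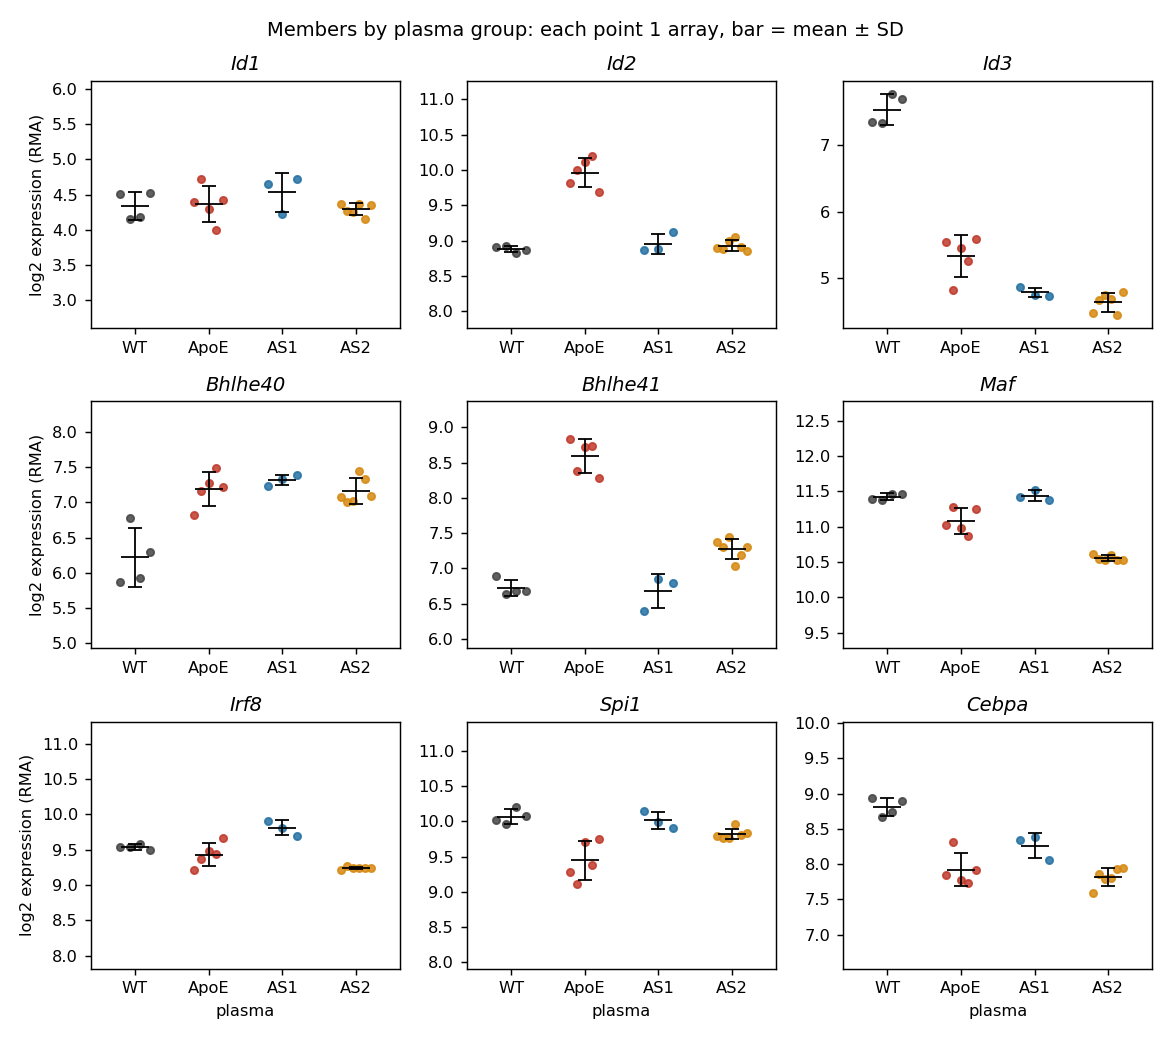
Log2 expression (y axis) of the 9 genes by plasma group (x axis), with 1 point per array and the mean ± SD as bars; each panel spans at least 3.5 log2 units. Id3 is high with WT plasma alone, Id2 and Bhlhe41 are highest with ApoE plasma, Bhlhe40 is lowest with WT plasma and Maf is lowest with AS2 plasma.

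The Id genes had separate patterns. With ApoE against WT plasma, Id2 rose 2.12-fold and Id3 fell 4.56-fold, whereas Id1 did not pass the test. Against ApoE plasma, Id2 and Id3 were both lower with AS1 and with AS2 plasma.

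Id3, an inhibitor of E proteins that marks Kupffer cells among tissue macrophages, measured 7.34, 7.32, 7.75 and 7.69 in the WT arrays. The ApoE arrays measured 5.54, 4.82, 5.46, 5.26 and 5.60, the AS1 arrays 4.88, 4.75 and 4.74, and the AS2 arrays from 4.46 to 4.79 with a median of 4.68. Every WT array lay at least 1.73 log2 units above every array of the other groups. Group means were 7.53 ± 0.23 (SD, n = 4) with WT, 5.34 ± 0.31 (SD, n = 5) with ApoE, 4.79 ± 0.07 (SD, n = 3) with AS1 and 4.64 ± 0.14 (SD, n = 6) with AS2 plasma. The difference of ApoE from WT was -2.19 ± 0.135 (SE) log2 units (limma adjusted p = 5.35e-09), rank 5 from the lowest of 24705 rows. Against WT, AS1 was 6.66-fold lower (adjusted p = 2.92e-09, rank 1 from the lowest) and AS2 7.38-fold lower (adjusted p = 3.86e-11). The Id3 levels with AS1 and AS2 plasma were little above the array median of 4.37, a dim range in which the size of a fold value is less certain.
AS2 lay below ApoE plasma by 0.69 log2 units in Id3 (-0.69 ± 0.122 (SE), limma adjusted p = 0.000468), and the arrays of these groups were 0.03 units apart. The AS1 difference from ApoE was -0.54 ± 0.147 (SE, limma adjusted p = 0.0148), with ApoE replicate 2 (4.82) inside the AS1 range. Leaving out AS1 replicate 2 or 3 took this call away, at adjusted p of 0.0532 and 0.0582. The neighbours AS1 and AS2 did not pass (difference -0.15, 95% interval -0.45 to 0.15, adjusted p = 0.575).

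Id2, an inhibitor of E proteins required for innate lymphoid and dendritic cell lineages, measured 8.92, 8.92, 8.82 and 8.87 with WT plasma. The ApoE arrays measured 9.82, 10.01, 10.11, 10.20 and 9.69, the AS1 arrays 8.87, 8.88 and 9.12, and the AS2 arrays from 8.85 to 9.05 with a median of 8.90. All ApoE arrays were higher than all arrays of the other groups, which overlapped one another. ApoE exceeded WT by 1.08 ± 0.0857 (SE) log2 units (limma adjusted p = 8.51e-08), and AS1 and AS2 lay below ApoE by 1.01 ± 0.0933 and 1.04 ± 0.0774 (SE; differences -1.01 and -1.04, limma adjusted p = 1.92e-06 and 3.72e-08). These 3 differences share the ApoE arrays. From the highest level the order was ApoE, AS1, AS2 and WT, and none of the last 3 differed from its neighbour. The difference of AS1 from WT was 0.07 (95% interval -0.13 to 0.28, adjusted p = 0.77) and that of AS2 from WT 0.05 (-0.13 to 0.22, adjusted p = 0.815). Of 8 dendritic cell markers, 4 rose and 0 fell with ApoE against WT plasma (median 0.25), 2 rose and 0 fell with AS1 against ApoE (median 0.14) and 0 rose and 3 fell with AS2 against ApoE (median -0.10). Their mean level lay near the array median of 4.37. It was between 4.23 and 4.35 in the WT arrays and between 4.38 and 4.58 in the ApoE arrays. In the AS1 arrays it was between 4.60 and 4.74, and in the AS2 arrays between 4.22 and 4.40. The part of these markers in the level of Id2 was not tested.

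Id1, a target of BMP signalling, was dim. It measured 4.51, 4.16, 4.19 and 4.52 with WT plasma, 4.39, 4.72, 4.29, 4.00 and 4.43 with ApoE plasma and 4.65, 4.22 and 4.72 with AS1 plasma, and the AS2 arrays lay between 4.15 and 4.37 with a median of 4.31. All groups overlapped around the array median of 4.37. The differences of ApoE from WT and of AS2 from WT were 0.02 (95% interval -0.24 to 0.29) and -0.05 (-0.31 to 0.21).

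Both Bhlhe genes rose with ApoE against WT plasma, Bhlhe41 3.64-fold and Bhlhe40 1.96-fold. Bhlhe41 fell 3.76-fold with AS1 and 2.49-fold with AS2 against ApoE plasma, and Bhlhe40 did not pass the test in either comparison.

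Bhlhe41, the gene of DEC2, measured 6.89, 6.64, 6.69 and 6.68 with WT plasma and 8.83, 8.38, 8.72, 8.74 and 8.29 with ApoE plasma. The AS1 arrays measured 6.40, 6.85 and 6.79, and the AS2 arrays from 7.04 to 7.45 with a median of 7.31. The ApoE arrays stood highest, the AS2 arrays formed a separate middle band, and the WT and AS1 arrays overlapped. ApoE exceeded WT by 1.87 ± 0.118 (SE) log2 units (limma adjusted p = 6.81e-09), rank 28 from the highest. AS1 against ApoE was -1.91 ± 0.128 (limma adjusted p = 3.60e-07), rank 5 from the lowest, and AS2 against ApoE was -1.31 ± 0.106 (adjusted p = 9.14e-08).
AS2 also exceeded AS1 in Bhlhe41 by 0.60 ± 0.124 (SE, limma adjusted p = 0.00157) and WT by 0.55 ± 0.113 (adjusted p = 0.00168). The lowest neighbours of the order, WT and AS1, differed by -0.04 (95% interval -0.33 to 0.24, adjusted p = 0.915).

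Bhlhe40, the gene of DEC1, measured 5.87, 6.78, 5.93 and 6.29 with WT plasma, 6.82, 7.16, 7.27, 7.48 and 7.21 with ApoE plasma, 7.24, 7.33 and 7.39 with AS1 plasma, and from 6.999 to 7.44 with a median of 7.08 with AS2 plasma. Every WT array was lower than every other array, by as little as 0.04 log2 units between WT replicate 2 and ApoE replicate 1, and the other 3 groups overlapped. The WT arrays also had the widest spread of the 4 groups in this gene, at an SD of 0.41. Against WT, ApoE was 1.96-fold, AS1 2.14-fold and AS2 1.92-fold higher (limma adjusted p = 0.000238, 0.000572 and 0.000201). The AS1 and AS2 differences from ApoE were 0.13 (95% interval -0.24 to 0.49, adjusted p = 0.756) and -0.03 (-0.33 to 0.27, adjusted p = 0.947).

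**Figure D2:**
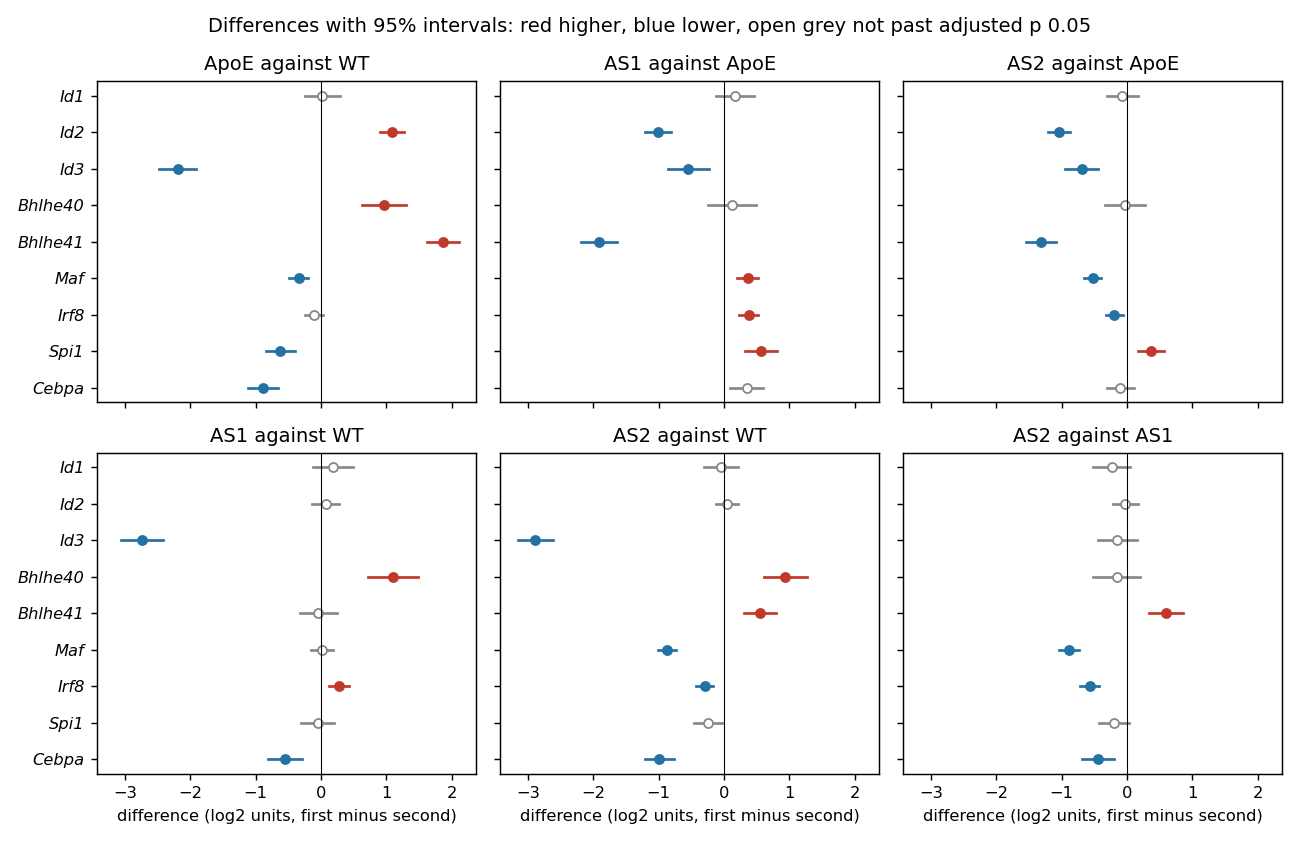
Differences in log2 units (x axis, first group minus second) of the 9 genes (y axis) for the 6 pairs of groups, with 95% intervals as lines. Filled red and blue points are higher and lower at adjusted p below 0.05, and open grey points did not pass; Id3 lies furthest left in all 3 comparisons with WT plasma.

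Among the identity factors, Spi1 and Cebpa fell with ApoE against WT plasma by 0.62 and 0.89 log2 units, and Maf fell by 0.34. Spi1, Maf and Irf8 were higher with AS1 than with ApoE plasma, and Irf8 also exceeded WT. Maf, Irf8 and Cebpa had their lowest mean of the 4 groups with AS2 plasma, although Cebpa did not pass the test of AS2 against ApoE plasma. Spi1, by contrast, was higher with AS2 than with ApoE plasma. Macrophage markers moved in the same arrays: 1 of 9 rose and 6 fell with ApoE against WT plasma (median -0.40), and 0 rose and 6 fell with AS2 against WT plasma (median -0.33). Their mean level lay between 11.48 and 11.51 in the WT arrays, 11.03 and 11.21 in the ApoE arrays and 11.07 and 11.14 in the AS2 arrays, without overlap between WT and either. Their part in the levels of these factors was not tested.

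Spi1 measured 10.03, 9.96, 10.20 and 10.08 with WT plasma, 9.29, 9.12, 9.71, 9.38 and 9.74 with ApoE plasma, 10.14, 10.00 and 9.90 with AS1 plasma, and from 9.76 to 9.97 with a median of 9.80 with AS2 plasma. All ApoE arrays were lower than all arrays of the other groups, by 0.02 log2 units at the closest. The difference of ApoE from WT was -0.62 ± 0.104 (SE, limma adjusted p = 0.000304). AS1 exceeded ApoE by 0.57 ± 0.114 (adjusted p = 0.00167) and AS2 exceeded it by 0.37 ± 0.0942 (adjusted p = 0.00943). The order of means was WT (10.07), AS1 (10.01), AS2 (9.82) and ApoE (9.45), and the first 3 did not differ from their neighbours (adjusted p = 0.881 and 0.265). The difference of AS2 from WT in Spi1 was -0.25 (95% interval -0.46 to -0.04, adjusted p = 0.113), which passed with array weights and in a fit of the 2 groups alone (adjusted p = 0.0401 and 0.00761).

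Cebpa measured 8.94, 8.66, 8.73 and 8.90 with WT plasma, 7.84, 8.32, 7.78, 7.74 and 7.92 with ApoE plasma, 8.35, 8.39 and 8.06 with AS1 plasma, and from 7.60 to 7.94 with a median of 7.83 with AS2 plasma. The WT arrays were highest and did not overlap with any other group, and ApoE replicate 2 (8.32) lay among the AS1 arrays. Against WT, ApoE was 1.85-fold, AS1 1.46-fold and AS2 1.99-fold lower (limma adjusted p = 1.03e-05, 0.00771 and 1.58e-06). Without AS1 replicate 3 the AS1 difference from WT was -0.44 (adjusted p = 0.0606). AS2 lay below AS1 (-0.44 ± 0.114 (SE), adjusted p = 0.00768), a call that was lost when AS1 replicate 2 was left out (adjusted p = 0.051).
The AS1 difference from ApoE in Cebpa was 0.35 ± 0.117 (SE, limma adjusted p = 0.0547) and did not pass. It passed without ApoE replicate 2 (adjusted p = 0.00254), without AS1 replicate 3 (0.0265), without ApoE replicates 2 and 5 (0.00261) and in 3 other fits given with the alternatives. ApoE and AS2 were neighbours at -0.10 (95% interval -0.31 to 0.11, adjusted p = 0.649).

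Maf measured 11.39, 11.37, 11.47 and 11.46 with WT plasma, 11.02, 11.28, 10.99, 10.86 and 11.25 with ApoE plasma, 11.42, 11.53 and 11.38 with AS1 plasma, and from 10.52 to 10.62 with a median of 10.54 with AS2 plasma. The AS2 arrays formed the lowest band, the ApoE arrays a middle band that overlapped with neither side, and the WT and AS1 arrays overlapped. AS2 was 1.44-fold lower than ApoE, 1.82-fold lower than WT and 1.85-fold lower than AS1 (limma adjusted p = 8.11e-06, 3.39e-08 and 1.27e-07). ApoE lay below WT (-0.34 ± 0.0694 (SE), adjusted p = 0.0017) and AS1 exceeded ApoE by 0.36 ± 0.0755 (adjusted p = 0.00238). In a fit of AS1 and ApoE alone the last difference had adjusted p = 0.0563.

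Irf8 measured 9.54, 9.54, 9.58 and 9.49 with WT plasma, 9.21, 9.37, 9.48, 9.43 and 9.66 with ApoE plasma, 9.91, 9.81 and 9.70 with AS1 plasma, and from 9.21 to 9.27 with a median of 9.24 with AS2 plasma. The AS1 arrays were highest, and the ApoE arrays spanned the WT range and reached down to the AS2 arrays. AS2 was lower than AS1 (-0.57 ± 0.0688 (SE), limma adjusted p = 8.07e-06) and than WT (-0.30 ± 0.0628, adjusted p = 0.00218), and AS1 exceeded ApoE by 0.38 ± 0.0711 (adjusted p = 0.00102). ApoE and WT differed by -0.11 (95% interval -0.24 to 0.03, adjusted p = 0.367). Without ApoE replicate 5, the highest ApoE array, that difference was -0.16 and passed (adjusted p = 0.049).
The AS2 difference from ApoE was -0.19 ± 0.0589 (SE, limma adjusted p = 0.0332) and was lost without any of ApoE replicates 3, 4 and 5 or AS2 replicates 1, 3, 4, 5 and 6 (adjusted p from 0.0541 to 0.087) and without ApoE replicates 2 and 5 together (0.145). Among these fits the difference was -0.13 without ApoE replicate 5, -0.14 without both, and between -0.19 and -0.18 in the others. AS1 exceeded WT by 0.27 ± 0.0743 (adjusted p = 0.0263), and this call was lost without WT replicate 1 or 4 or AS1 replicate 1 or 2 (adjusted p from 0.0539 to 0.148). The difference was 0.22 without AS1 replicate 1 and between 0.26 and 0.27 in the other 3 of these fits.

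Counted over all 9 members, 3 rose and 4 fell with ApoE against WT plasma. Of all rows 16.9% were called in this comparison, 8.54% higher and 8.36% lower. The members' median difference was -0.11 log2 units, against -0.0036 over all rows. With AS1 against ApoE, 3 rose and 3 fell (all rows 16.5%, 7.74% higher and 8.80% lower), and with AS2 against ApoE, 1 rose and 5 fell (15.6%, 7.59% and 8.02%). With AS1 against WT, 2 rose and 2 fell (9.48%, 4.84% and 4.64%), with AS2 against WT, 2 rose and 4 fell (17.8%, 8.65% and 9.20%), and with AS2 against AS1, 1 rose and 3 fell (22.1%, 11.5% and 10.6%). The members' medians in these 5 comparisons were 0.16, -0.19, 0.02, -0.25 and -0.19, where all rows had medians from -0.0068 to 0.0019. The members were chosen with results of these arrays known, so their shares above the background are not independent evidence.

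Of 6 measured genes of the Id proteins' partners and relatives, Id4 included, 1 rose and 2 fell with ApoE against WT plasma (median -0.08 log2 units): Tcf12 rose by 0.42, whereas Tcf4 and Tcf3 differed by -0.36 and -0.32. In the AS1 arrays, against ApoE, 3 rose and 1 fell (median 0.23), with Tcf3 at 0.57, Tcf4 at 0.46, Lyl1, a stem cell and myeloid factor, at 0.64 and Tcf12 at -0.35. In the AS2 arrays, against ApoE, 1 rose and 1 fell (median -0.02), Tcf4 by 0.23 and Tcf12 at -0.22. Id4 passed in none of the 6 comparisons.

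The BMP and TGF-beta pathway, which induces Id genes through SMAD proteins, had 28 measured genes. With ApoE against WT plasma 1 rose and 7 fell (median -0.10). The co-receptor gene Eng, the SMAD inhibitor gene Skil and the ligand gene Bmp2 differed by -0.84, -0.84 and -0.64, and the receptor gene Tgfbr2 rose by 0.32. Without WT replicate 1, 4 rather than 7 of these genes fell. Under AS1 plasma, against ApoE, 2 rose and 0 fell (median 0.03), Eng by 0.55 and Bmp2 by 0.64. Under AS2 plasma, against ApoE, 4 rose and 4 fell (median -0.04), with Tgfbr2, Bmp2 and the BMP receptor gene Bmpr2 at -0.57, -0.69 and -0.42 and the activin receptor gene Acvr2a at 0.42. Against WT plasma AS2 had 11 of 28 lower and 1 higher (median -0.16), and the smallest p-values belonged to Bmp2 (-1.33) and the inhibitory Smad6 (-0.54). The part of these pathway genes in the levels of the Id genes was not tested.

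Of 18 measured genes of the circadian clock, to which Bhlhe40 and Bhlhe41 belong, 6 rose and 4 fell with ApoE against WT plasma (median 0.12 log2 units). Nr1d2 and Cry1, genes of clock repressors, rose by 0.74 and 0.61, and the activator gene Arntl and the repressor gene Per1 differed by -0.79 and -0.59. With AS1 against ApoE plasma 5 rose and 2 fell (median 0.03), with Per1 at 0.76, the kinase gene Csnk1e at 0.45, Arntl at 0.37 and Clock at -0.34. The 5 higher genes became 2 without ApoE replicate 4, AS1 replicate 1 or AS1 replicate 2, and 3 without ApoE replicate 3 or in a fit of these 2 groups alone. With AS2 against ApoE plasma 1 rose and 4 fell (median -0.10), with Clock, the repressor gene Nfil3, Cry1 and Nr1d2 at -0.56, -0.41, -0.39 and -0.26. The labels give no hour of the day.

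Of 7 measured genes of the family of Maf, the small Maf proteins and their Bach partners, 2 fell with ApoE against WT (Bach1 at -0.38 and Mafg at -0.26), 2 rose with AS1 against ApoE (Bach1 at 0.27 and Mafa at 0.42) and 1 fell with AS2 against ApoE (Mafg at -0.50), with medians of 0.0002, 0.04 and -0.01.

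**Figure D3:**
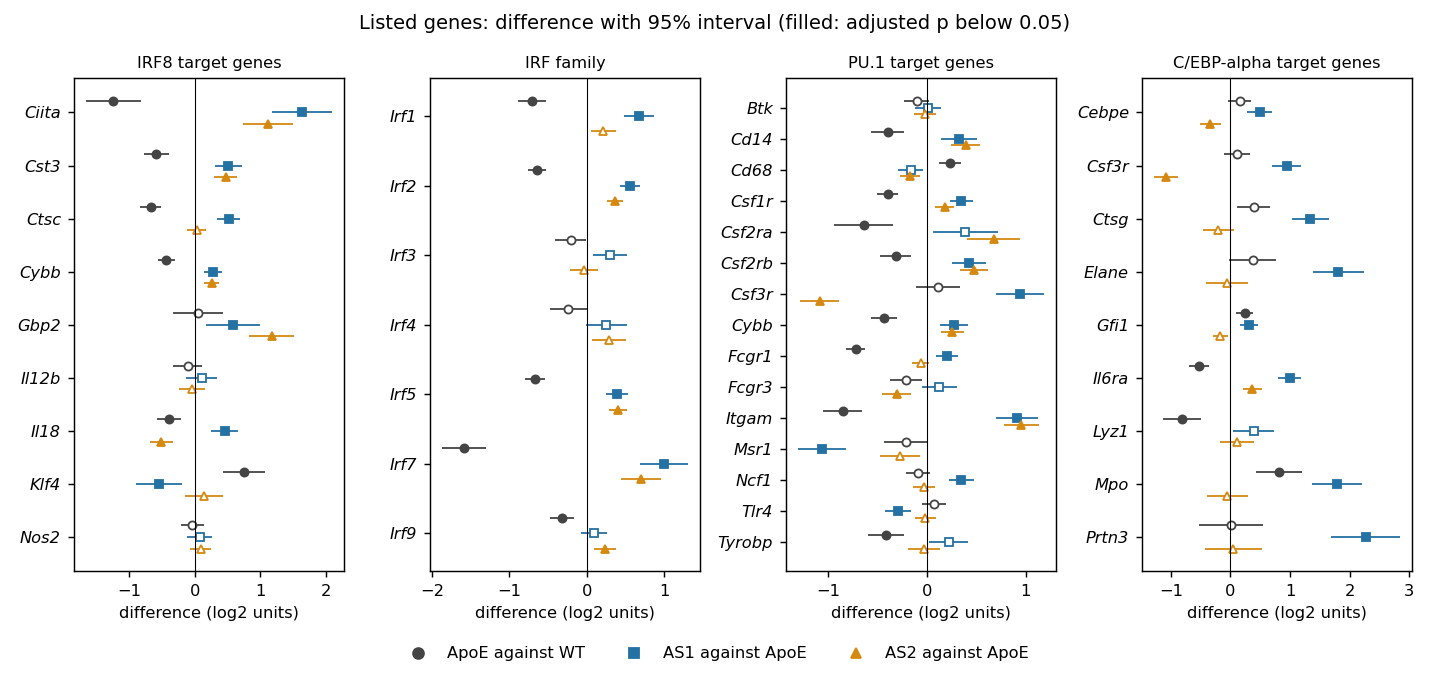
Differences in log2 units (x axis) with 95% intervals for listed genes (y axis) of 4 groups in 3 comparisons, ApoE against WT (black circles), AS1 against ApoE (blue squares) and AS2 against ApoE (orange triangles); filled symbols have adjusted p below 0.05. Of the 9 IRF8 targets 6 rose, and of the 9 C/EBP-alpha targets 8 rose, with AS1 against ApoE plasma.

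Among relatives of Irf8, 5 of 7 other IRF genes fell with ApoE against WT plasma (median -0.64): Irf7, the amplifier of the interferon response, differed by -1.59, Irf1 by -0.71, Irf5 by -0.66 and Irf2 by -0.64. Irf8 itself did not pass in that comparison. Under AS1 plasma, against ApoE, 4 rose and 0 fell (median 0.40), Irf7 by 1.001, Irf1 by 0.68, Irf2 by 0.56 and Irf5 by 0.40. In the AS2 arrays, against ApoE, 4 rose and 0 fell (median 0.29), Irf7 by 0.70, Irf5 by 0.40, Irf2 by 0.36 and Irf9 by 0.23. Irf8 differed by -0.19 log2 units in that comparison, a call lost in 8 of the 11 fits that left out 1 array. Of 9 measured known IRF8 targets, 1 rose and 5 fell with ApoE against WT plasma (median -0.39), with the protease gene Ctsc at -0.67, the oxidase gene Cybb at -0.43, the protease inhibitor gene Cst3 at -0.59 and the class II transactivator gene Ciita at -1.23. With AS1 against ApoE plasma 6 rose and 1 fell (median 0.46), with Ciita at 1.63, Ctsc at 0.51, Cst3 at 0.51 and the cytokine gene Il18 at 0.46. Under AS2 plasma, against ApoE, 4 rose and 1 fell (median 0.15), with the interferon-induced Gbp2 at 1.17, Ciita at 1.12, Cst3 at 0.47 and Il18 at -0.51.

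The genes known as PU.1 targets share Csf1r, Itgam, Cd68, Fcgr1 and Cd14 with the macrophage marker list. Their link to the level of Spi1 was not tested. With ApoE against WT plasma 8 of 15 measured fell and 1 rose (median -0.32), with the Fc receptor gene Fcgr1 at -0.72, the integrin gene Itgam at -0.85, the M-CSF receptor gene Csf1r at -0.39 and Cybb at -0.43. In the AS1 arrays, against ApoE, 8 rose and 2 fell (median 0.28): Itgam by 0.91, the G-CSF receptor gene Csf3r by 0.95 and Csf1r by 0.35 were higher, and the scavenger receptor gene Msr1 was at -1.06. With AS2 against ApoE plasma 6 rose and 3 fell (median -0.02), with Itgam at 0.96, Csf2rb, the shared GM-CSF receptor subunit gene, at 0.47, the LPS co-receptor gene Cd14 at 0.39 and Csf3r at -1.08. Of 15 ETS factor genes related to Spi1, 2 rose and 5 fell with ApoE against WT plasma (median -0.06), with Elf4 at -0.53, Elk3 at -0.47, Etv6 at -0.47 and Elf2 at 0.25. With AS1 against ApoE 6 rose and 2 fell (median 0.15), with Etv6 at 0.59, Elf4 at 0.55, Ets2 at -0.93 and Elf2 at -0.24, and 2 rather than 6 rose in a fit of these groups alone, and 3 without AS1 replicate 2. With AS2 against ApoE 3 rose and 6 fell (median -0.12), with Spic, the factor of iron-recycling macrophages, at -1.33, Ets2 at -0.80, Elf2 at -0.24 and Elk3 at 0.57.

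C/EBP family genes other than Cebpa numbered 5 measured. With ApoE against WT plasma 1 rose and 0 fell (median 0.14), namely the stress factor gene Ddit3 by 1.86. With AS1 against ApoE 1 rose and 2 fell (median -0.11), with Ddit3 at -1.51, the neutrophil factor gene Cebpe at 0.49 and Cebpg at -0.32. With AS2 against ApoE all 5 fell (median -0.44), with Ddit3 at -1.71, Cebpb at -0.54, Cebpd at -0.44, Cebpe at -0.34 and Cebpg at -0.28, a comparison in which Cebpa itself did not pass. Of 9 measured genes known as C/EBP-alpha targets of myeloid precursors, 2 rose and 2 fell with ApoE against WT plasma (median 0.16), with the granule enzyme gene Mpo at 0.81, Gfi1 at 0.24, the interleukin-6 receptor gene Il6ra at -0.53 and the lysozyme gene Lyz1 at -0.81. Under AS1 plasma, against ApoE, 8 rose and 0 fell (median 0.99), with Il6ra at 0.99 and the granule protease genes Ctsg, Mpo and Elane at 1.34, 1.79 and 1.81. In the AS2 arrays, against ApoE, 1 rose and 2 fell (median -0.06), with Il6ra at 0.37, Csf3r at -1.08 and Cebpe at -0.34.

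Mpo, Elane, Prtn3 and Ctsg, listed as C/EBP-alpha targets, are also neutrophil granule genes on the marker list, and neutrophil markers moved in the same arrays. All 13 measured neutrophil markers were higher with AS1 than with ApoE plasma (median 1.38), and their mean level per array lay between 9.47 and 9.73 with AS1 plasma, 7.57 and 8.71 with ApoE, 7.71 and 8.02 with WT and 7.10 and 7.78 with AS2 plasma. Of 5 measured monocyte and progenitor markers, 3 rose with AS1 against ApoE, including Ccr2 (1.56) and Ly6c2 (1.63). Of 9 macrophage markers, 6 rose and 0 fell with AS1 against ApoE plasma (median 0.33), and 0 rose and 1 fell with AS1 against WT plasma (median -0.02). Their mean level lay between 11.35 and 11.46 with AS1, 11.03 and 11.21 with ApoE and 11.48 and 11.51 with WT plasma, so every AS1 array lay below every WT array. Megakaryocyte markers had 4 of 6 higher and 1 lower with ApoE against WT, 3 higher with AS1 against ApoE and all 6 lower with AS2 against ApoE plasma. Mast cell, basophil and eosinophil markers had 5 of 8 higher with AS1 against ApoE. The part of these markers in the levels of Irf8, Spi1 and Cebpa was not tested.

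In the AS2 arrays, where the identity factors Maf, Irf8 and Cebpa had their lowest means, the mean level of the osteoclast markers was highest. Of 7 measured, 4 rose and 0 fell with AS2 against ApoE plasma (median 1.18). Among those that rose were the acid phosphatase gene Acp5 (2.33) and the fusion gene Dcstamp (2.43). Mmp9, on the same list, had its lowest mean with AS2 plasma (7.14, against 7.89 with ApoE, 9.67 with AS1 and 7.52 with WT). The mean level of the list per array lay between 6.79 and 7.23 with AS2 plasma and 6.00 and 6.30 with ApoE. It lay between 6.27 and 6.45 with AS1 and 5.86 and 5.98 with WT plasma. The macrophage marker Mertk, an efferocytosis receptor gene, was at -0.70 with AS2 against ApoE plasma, and Itgam at 0.96. Macrophage markers had 3 of 9 higher and 3 lower (median -0.06). The part of these genes in the levels of Maf, Irf8 and Cebpa was not tested.

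**Figure D4:**
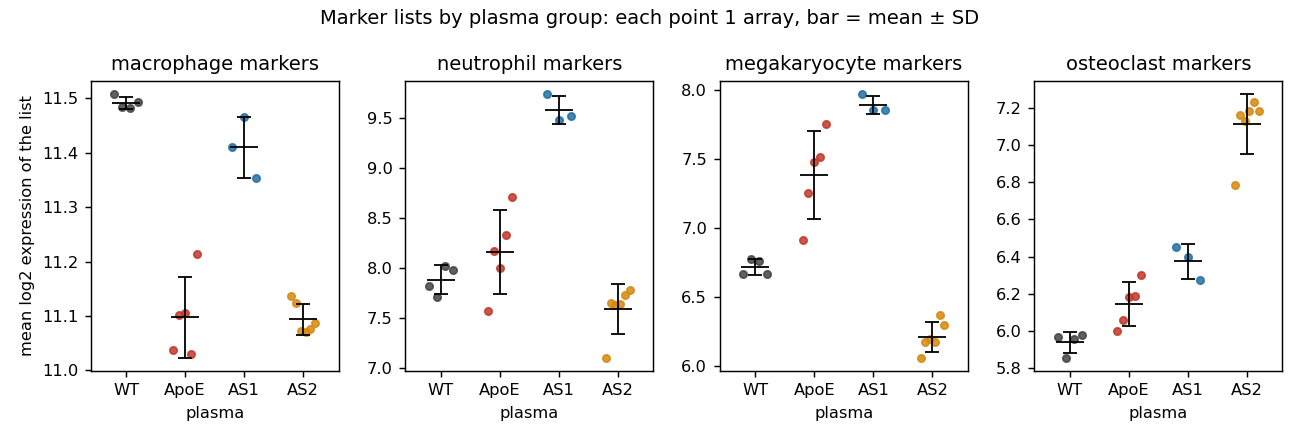
Mean log2 expression over the measured genes of 4 cell type marker lists (y axis) by plasma group (x axis), 1 point per array, with mean ± SD as bars and a separate scale in each panel. Neutrophil markers are highest with AS1 plasma (9.47 to 9.73), and osteoclast markers are highest with AS2 plasma (6.79 to 7.23).

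Other macrophage lineage factors covered 28 measured genes. With ApoE against WT plasma 2 rose and 11 fell (median -0.21), with Mitf, a factor of macrophages and osteoclasts, at -0.75, the Kupffer cell factor gene Zeb2 at -0.36, Tfe3 at -0.43 and Pparg at -0.47. With AS1 against ApoE plasma 12 rose and 1 fell (median 0.14), among them Runx1 (0.64), the precursor factor gene Myb (1.35), the osteoclast factor gene Nfatc1 (0.57) and Rara (0.76). Under AS2 plasma, against ApoE, 5 rose and 5 fell (median 0.04), with Mitf at 1.003, Egr2 at 1.47, Hif1a at -1.03 and the nuclear receptor gene Rxra at -0.95.

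The rows whose values ran most nearly parallel to a member over the 18 arrays were named by Pearson correlation, which counts the plasma groups as well as the arrays within them. Id2 ran closest to Sec24d (0.977) and Ero1a (0.974), genes of protein export and folding in the endoplasmic reticulum, and to the endothelial growth factor receptor gene Kdr (0.967). Bhlhe41 ran closest to Sh3bgrl2 (0.978), the chaperone gene Hspa5 (0.968) and Pdp1 (0.967), with within-group correlations of 0.751, 0.421 and 0.881. Id2 and Bhlhe41 correlated with each other at 0.917 over the 18 arrays, and at 0.305 after group means were removed. Id3 ran closest to the haem oxygenase gene Hmox1 (0.951), Panx1 (0.950) and the glutathione synthesis gene Gclm (0.943) and most opposite to Mki67, a gene of dividing cells (-0.981). Within groups these correlations of Id3 were 0.554, 0.534, -0.207 and -0.098, so the parallel with Gclm and the opposition to Mki67 lay between groups. Bhlhe40 ran closest to the division genes Plk1 (0.837) and Mki67 (0.837) and to the CDK inhibitor gene Cdkn2d (0.831), and most opposite to Penk (-0.905). Within groups these correlations of Bhlhe40 were 0.323, -0.296, 0.543 and -0.556, so the sign for Mki67 turned.
Maf ran closest to Sort1 (0.972), Ulk2 (0.969) and Lpcat2 (0.969) and most opposite to the filament gene Vim (-0.973). Irf8 ran closest to Plbd1 (0.951), Aff1 (0.950) and Zfp362 (0.946) and most opposite to the fatty acid receptor gene Cd36 (-0.967). Spi1 ran closest to Lfng (0.968), Cited2 (0.966) and the TNF receptor gene Tnfrsf1b (0.963), with within-group correlations of 0.899, 0.888 and 0.867. Cebpa ran closest to Xylt2 (0.955), Tm6sf1 (0.943) and Cd300e (0.940), with within-group correlations of 0.637, 0.678 and 0.490. For Id1, whose levels did not separate the groups, the closest rows reached 0.791 (Krtap28-13), 0.780 (Defb30) and 0.771 (Rexo1). All rows share the same 18 arrays, and these values were picked as the highest of 24705 rows.

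Spread within groups also differed for these genes. The SD was largest among the ApoE arrays for 7 of the 9 members, where 34.2% of all rows had their largest SD in that group. The median SD of the members was 0.24 with ApoE, 0.11 with WT, 0.12 with AS1 and 0.09 with AS2 plasma, and that of all rows 0.10, 0.09, 0.08 and 0.09. In Irf8 the ApoE arrays had an SD of 0.16 and the AS2 arrays 0.02, and in Maf 0.18 and 0.04.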

How the data were processed

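Macrophage RNA of 18 samples (4 WT, 5 ApoE, 3 AS1 and 6 AS2 plasma) was measured as biotinylated cRNA by an Affymetrix protocol, per the labels. The deposited log2 values came from RMA, per the submitters' processing notes. The sources used here do not state its version, probe set definition or genome build. RMA makes distributions equal, so a global shift in RNA amount would not show. ApoE replicate 1 held 24162 distinct values and each other array 7087, and sorted values differed by up to 0.0019. Of 25428 rows, 24705 carried 1 gene symbol, 0 carried several and 723 had no entry in the platform annotation. The number of arrays limits the precision.

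limma 3.58.1 (R 4.3.3) fitted 4 group means to all 24705 rows (lmFit and eBayes, with 14 residual degrees of freedom). P-values are two-sided and Benjamini-Hochberg adjusted over all rows, with a threshold of 0.05 and intervals of 95%. The script was tested on simulated data. Differences are first minus second group.

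The members, 12 pathway lists and 11 marker lists (218 of 233 genes measured) were chosen with earlier results of these data known. The results of 1 pathway list are not reported here. Up to 4 called genes of smallest p were named per pathway list in the 3 comparisons of ApoE with WT, AS1 with ApoE and AS2 with ApoE, and up to 2 in other pairs. Per member, the 3 rows of highest and the row of lowest correlation were found, without predicted genes, small RNAs and pseudogenes. Marker genes, Cebpg with AS2 and the pair of Id2 and Bhlhe41 were singled out after their values were seen.

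Alternatives used unnamed rows too, only rows above the 40th percentile of mean level, a single row per gene, repeated quantile normalization, median centring, trended robust variance, weighted arrays, fits restricted to the compared groups, a block on replicate number, and leaving out arrays singly. After the data were seen, a fit without both ApoE replicates 2 and 5 joined these.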

Additional observations from a re-analysis of the deposited data

Results flagged for a closer look

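Of 27 sets of 4 to 6 arrays (9 genes in the WT, ApoE and AS2 groups), 2 held an array that stood apart by Dixon's test, where chance flags about 1 set in 20. Bhlhe41 measured 6.89 in WT replicate 1, against 6.69 in the nearest WT array. Spi1 measured 9.97 in AS2 replicate 4, against 9.83 in the nearest AS2 array.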

How the results depend on the processing

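Of 999 values of the 9 members under other settings, 947 kept their direction and their side of the threshold, 22 lost a call, 10 gained a call and 20 changed sign. Counts of called members moved by at most 1.5 times in every setting: leaving out 1 array gave 7 to 8 members for ApoE against WT, 5 to 7 for AS1 against ApoE, 5 to 6 for AS2 against ApoE, 3 to 4 for AS1 against WT, 6 for AS2 against WT and 3 to 4 for AS2 against AS1, and 8 members differed among the 4 groups in each of these fits. All sign changes were in differences that were not called. With array weights, Id1 differed by -0.079 for ApoE against WT and by 0.014 for AS2 against ApoE. Without ApoE replicates 2 and 5, Id1 differed by -0.12 and 0.067 in these comparisons, and Cebpa by 0.032 for AS2 against ApoE. Leaving out 1 array gave Id1 -0.066 to 0.11 for ApoE against WT, -0.16 to 0.017 for AS2 against ApoE and -0.11 to 0.010 for AS2 against WT. For AS1 against WT it gave Id2 -0.0073 to 0.12, Bhlhe41 -0.13 to 0.094, Maf -0.024 to 0.051 and Spi1 -0.12 to 0.0034. For AS2 against ApoE it gave Bhlhe40 -0.12 to 0.044 and Cebpa -0.14 to 0.00053, and for AS2 against AS1 it gave Id2 -0.072 to 0.054. Cebpa with AS1 against ApoE passed with rows of low mean left out, trended robust variance and array weights (adjusted p = 0.0332, 0.0436 and 0.00398). In fits of the 2 groups alone, Id3 with AS1 against ApoE and Irf8 with AS2 against ApoE were lost (0.0727 and 0.0692) and Spi1 with AS2 against AS1 passed (0.0466). The cause was not tested.

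With the replicate number as a block, Irf8 lost its calls for AS2 against ApoE and AS1 against WT (adjusted p = 0.0761 and 0.0614), and 3945, 3748 and 3475 rather than 4177, 4088 and 3857 rows were called in the 3 comparisons of ApoE with WT, AS1 with ApoE and AS2 with ApoE. Of the circadian clock genes, 3 rather than 5 then rose with AS1 against ApoE. Whether arrays of different groups that share a number also share a culture or run is not labelled. Deviations of 22 such pairs correlated at a mean of -0.0075 (from -0.21 to 0.13), and 1 of 18 arrays correlated best with its own number.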
